A study of Mus musculus with 8 samples.

Results

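The collagen gene family was read out in 8 mouse prostate tumours, grown in aged or in young hosts. Its members are the genes whose symbol has the form of Col, a number, a and a number, which 44 of the 24028 genes in the deposited tables have. The pattern takes every such gene whatever its level, and it leaves out collagens with other names and proteins that only carry collagen-like stretches. The members were set in classes by textbook structure: 11 fibrillar chains, 6 chains of collagen IV in the basement membrane, 6 chains of collagen VI, 9 fibril-associated collagens with interrupted triple helices (FACIT) and 12 others.

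All tumours grew from TRAMP-C2, an established adenocarcinoma cell line from the prostate of a TRAMP transgenic mouse, in which the probasin promoter drives SV40 T antigens. By the label text, 1 M cells were injected into the dorsolateral prostate of male, immune-competent C57BL/6 mice, syngeneic to the line, and tumours were taken after 30 to 45 days. The aged hosts were 20 to 24 months old and the young hosts 4 months old. In all, 19 aged and 20 young hosts were injected, and the labels name no other difference between the groups. 4 tumours of aged hosts (mice 46, 47, 50 and 51) and 4 of young hosts (mice 36, 37, 40 and 43) were sequenced as bulk polyadenylated RNA, so RNA of the injected cells and of host stroma was counted together.

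Collagens are proteins of the extracellular matrix in which 3 chains wind into a triple helix, and a glycine must open each triplet of residues. Fibrillar collagens form the load-bearing fibres of connective tissue, collagen IV forms the sheet under epithelia and around vessels, and collagen VI forms beaded filaments near cells. In tumours, fibroblasts are known as the main source of fibrillar collagen, while epithelial and endothelial cells contribute to the basement membrane.

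The glycine rule can be read from the coding sequences, and the classes differ in how long it holds without a break. In the longest coding transcript of each gene (GENCODE vM21, GRCm38), the longest unbroken run of triplets that start with a glycine codon was 216 to 344 triplets in the 11 fibrillar chains, with a median of 338. It was 39 to 66 triplets in the 6 collagen IV chains, which hold 22 to 27 separate runs of at least 5 triplets. In the 6 collagen VI chains it was 37 to 87 triplets, in the FACIT genes 32 to 113 and in the others 23 to 75. The repeat filled 74.9% to 78.8% of the codons of collagen IV, but 10.05% to 31.9% of those of collagen VI, whose chains are mostly globular domains. These stretches of 90 bases show an unbroken repeat of a fibrillar chain, a break in the repeat of a collagen IV chain, and the repeat of the collagen VI chain with the smallest p between the host ages. Capitals mark glycine codons that are in frame. They are codons 675 to 704 of Col1a1 (chromosome 11), 1338 to 1367 of Col4a1 (chromosome 8) and 2231 to 2260 of Col6a3 (chromosome 1), counted from the start codon.
Col1a1: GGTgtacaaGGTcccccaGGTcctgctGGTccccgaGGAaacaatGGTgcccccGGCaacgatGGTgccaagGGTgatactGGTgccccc
Col4a1: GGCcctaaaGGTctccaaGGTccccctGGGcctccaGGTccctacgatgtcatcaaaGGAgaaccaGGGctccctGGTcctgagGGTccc
Col6a3: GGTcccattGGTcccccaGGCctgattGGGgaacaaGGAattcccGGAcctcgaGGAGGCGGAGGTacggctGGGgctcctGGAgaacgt
In Col1a1 a glycine codon opens every triplet shown. In Col4a1 the spacing breaks once, at a longer stretch without glycine, and then resumes. In Col6a3 the 12 glycine codons include 4 in a row.

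Libraries held 27.1 to 35.7 M counted fragments, at which 3 fragments correspond to 0.084 to 0.111 CPM (fragments per 1 M counted). Transcripts of seminal vesicle and prostate secretory genes summed to 29041 CPM in aged 50, 39705 CPM in young 36 and 11829 CPM in young 37, against 7.33 to 258 CPM in the other 5 tumours. Skeletal muscle markers summed to 179 CPM in aged 51 and to 9.72 to 42.2 CPM in the others. Epithelial markers, 9 genes made up of Epcam and keratin, cadherin and claudin genes, summed to 146 to 730.3 CPM in aged hosts and 72.9 to 466 CPM in young hosts. None of them was at 0 in all tumours, but in bulk RNA these sums do not tell injected cells from host epithelium.

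Collagen transcripts were abundant in every tumour, and the fibrillar chains made up most of them. Collagens took 1.10%, 1.82%, 2.28% and 2.34% of all fragments in aged 46, 47, 50 and 51, and 1.89%, 2.701%, 3.23% and 2.48% in young 36, 37, 40 and 43. The lowest share was in aged 46 and the highest in young 40, and the groups overlapped, with means of 1.88% ± 0.58 in aged hosts and 2.58% ± 0.56 in young hosts (SD, n = 4 each). Of the collagen fragments, Col1a1, Col1a2 and Col3a1 alone took 67.6% to 74.1% in each tumour. By the median of FPKM, which divides CPM by transcript length, Col1a1 ranked 65, Col1a2 105, Col3a1 147 and Col6a1 254 among all genes. At the other end, 9 genes were too low for the test: Col2a1, Col9a1, Col9a2, Col10a1, Col19a1, Col22a1, Col25a1, Col26a1 and Col6a6 had 3 to 62 fragments in all 8 tumours together, and none was above 1.07 CPM in any. Col2a1, Col9a1, Col9a2 and Col10a1 are known as cartilage collagens.

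**Figure D1:**
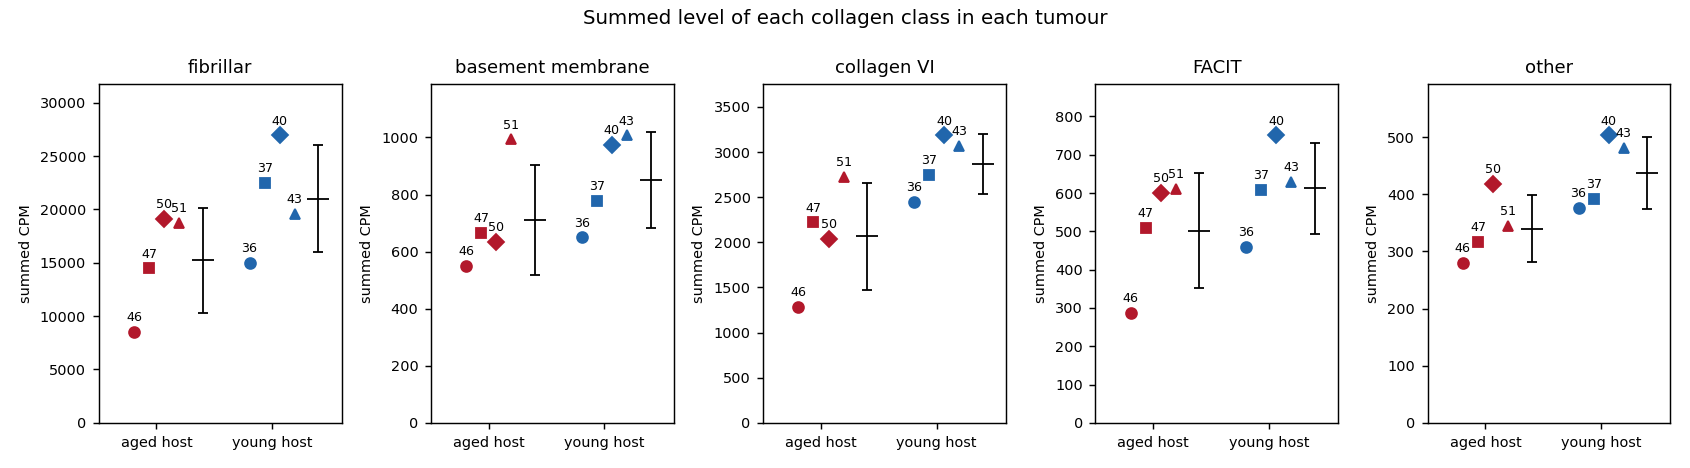
Summed CPM of the members of each collagen class (vertical axes, from 0) in each of 4 aged and 4 young tumours, numbered by mouse, with bars for mean ± SD. In fibrillar, collagen VI, FACIT and the other collagens, aged 46 is the lowest tumour and young 40 the highest, and the groups overlap in every class.

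By class, the groups overlapped in every summed level, as the plot of class sums shows. Fibrillar chains summed to 8556, 14469.6, 19142 and 18743 CPM in aged 46, 47, 50 and 51, and to 14998, 22479.6, 26936 and 19604 CPM in young 36, 37, 40 and 43. Collagen VI chains summed to 1287, 2219.9, 2038 and 2720.5 CPM in the aged tumours, and to 2445, 2751, 3184 and 3072 CPM in the young tumours. Collagen IV chains summed to 551 to 993 CPM in aged hosts and 649.7 to 1007 CPM in young hosts. As a share of collagen fragments, fibrillar chains took 78.1% to 83.8% in aged and 79.1% to 83.3% in young tumours. The FACIT share was small but did not overlap between the groups, at 2.61% to 2.80% in aged and 2.25% to 2.54% in young tumours, and was not tested. It was the only class share without overlap. Collagen IV took 2.78% to 5.03% in aged and 2.88% to 4.06% in young tumours, and collagen VI 8.93% to 12.2% and 9.84% to 12.9%. The others took 1.47% to 2.56% and 1.45% to 1.99%. FACIT sums overlapped, at 287 to 611 CPM in aged and 460 to 751 CPM in young tumours.

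Of the 35 collagens that could be tested, 22 had a lower and 13 a higher fitted level in aged tumours, which is 62.9% lower, against 44.7% of all 14575 genes tested. Their median log2 fold change was -0.23 (aged minus young), against 0.031 for all genes. That median rests on 2 tumours of opposite groups, since it was -0.047 without aged 46 and -0.040 without young 40. In the quasi-likelihood test of edgeR, 0 collagens had a Benjamini-Hochberg adjusted p under 0.05, as had 0.0% of all genes, and the smallest adjusted p among collagens was 0.738. At an unadjusted p of 0.05, edgeR gave 4 collagens, all lower in aged tumours, where 2.66% of all genes were called in that direction and 4.99% in either. That count was 9 without aged 51, where 2.5% of all genes were called lower, and 7 without aged 50 and young 36, the tumours richest in gland transcripts, where 2.74% were. Without all 3 of these tumours it was 16 of 36 tested collagens, where 1.96% of all genes were called lower. That fit set only aged 46 and 47 against young 37, 40 and 43, and aged 46 had the lowest collagen share of all tumours. Of the tumours left out, aged 50 and 51 had the highest collagen shares of the aged group (2.28% and 2.34%). Young 36 had the lowest of the young group (1.89%), while young 37, the next richest in gland transcripts, was kept. Leaving these tumours out moves the groups apart in collagen level by itself, so these higher counts are no separate support for lower collagen in aged tumours. In limma voom the count was 9, all lower in aged tumours, where 6.28% of all genes were called lower and 12.1% in either direction. DESeq2 called 2 collagens at its adjusted p of 0.05, Col6a3 and Col5a3, both lower in aged tumours, where it called 0.179% of its genes in that direction and 0.297% in either. limma voom called 0 collagens at its adjusted p of 0.05, and 0.0617% of all genes. The 4 aged and 4 young tumours did not overlap in CPM for 3 collagens, all lower in aged tumours, where 1.95% of all genes lay apart in that direction and 3.4% in either. In bulk RNA, fewer collagen-producing cells and less collagen RNA per cell cannot be told apart.

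**Figure D2:**
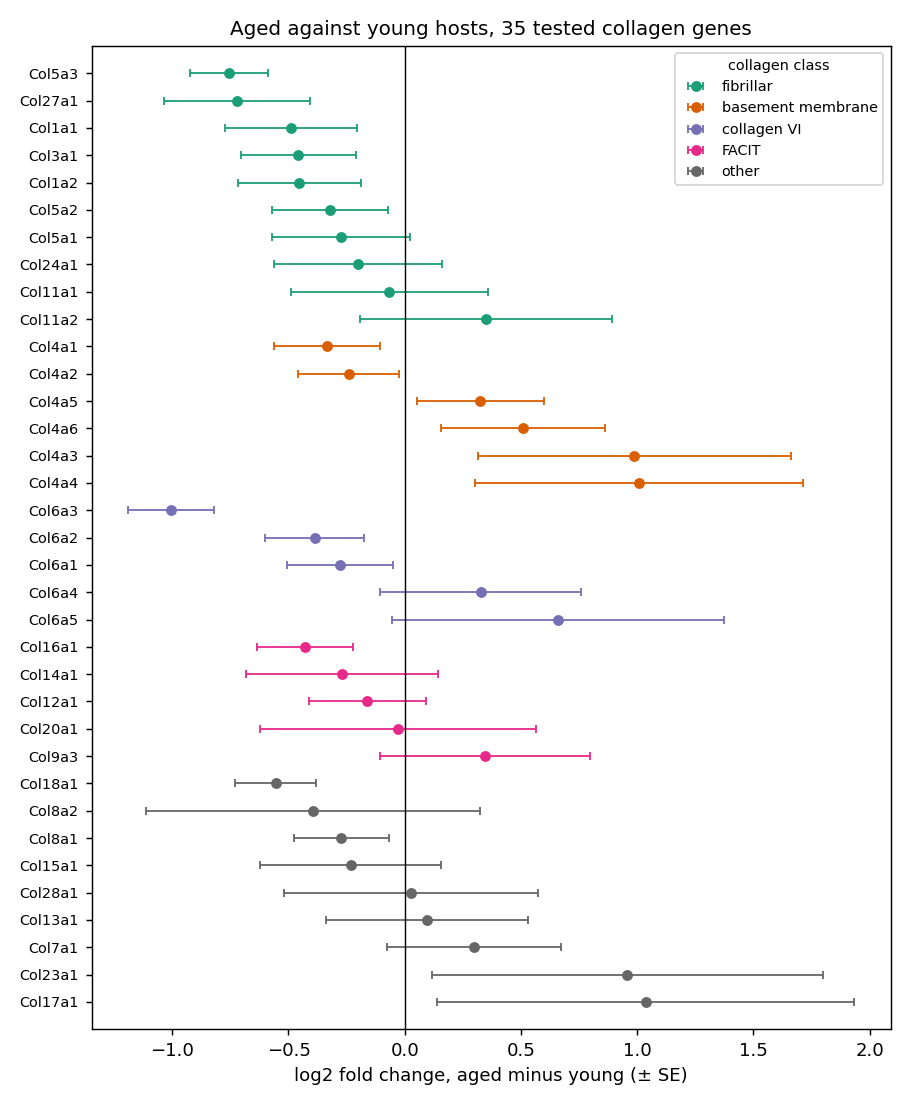
Log2 fold change (aged minus young, with SE) of the 35 tested collagens from the edgeR fit on 4 aged and 4 young tumours, coloured by class. Fold changes are below 0 for 9 of 10 fibrillar chains and above 0 for 4 of 6 collagen IV chains, and that of Col6a3 is the lowest.

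Among the fibrillar chains, 9 of 10 tested members had a lower fitted level in aged tumours (median log2 fold change -0.39), though 2 reached an unadjusted p of 0.05 and 1 had groups that did not overlap. With 1 tumour left out the fibrillar median ranged from -0.55 (without aged 51) to -0.20 (without aged 46), with -0.23 without young 40, and it was -0.88 without aged 50, young 36 and aged 51. Col1a1, the major chain of collagen I and thus of the fibres of most connective tissue, had 2474, 3786, 5903 and 5756 CPM in aged 46, 47, 50 and 51, and 4336, 7509, 7641 and 5895 CPM in young 36, 37, 40 and 43. Aged 46 and 47 were the 2 lowest tumours, while aged 50 and 51 lay within the young range. The log2 fold change was -0.49 ± 0.28 (SE; edgeR adjusted p = 0.923). Col1a2, the partner chain, had 2984, 5409, 6965 and 6968 CPM in the aged tumours, and 5517, 8291, 9783 and 7224 CPM in the young tumours, in the same order of mice. It followed Col1a1, with a fold change of -0.45 ± 0.26. Col3a1, whose product forms thinner fibres together with collagen I, had 1948, 3382, 4009.6 and 3302 CPM in the aged tumours, and 3142, 4216, 6369 and 3751 CPM in the young tumours. Its groups overlapped too (-0.46 ± 0.25).

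The minor fibrillar collagens of type V, which are built into collagen I fibres and limit their width, had a lower fitted level in aged tumours in all 3 chains. Col5a3, a chain of collagen V of narrower distribution than the others, had 216, 326, 216 and 211 CPM in aged 46, 47, 50 and 51, and 343, 362, 461 and 483 CPM in young 36, 37, 40 and 43. Every aged tumour was below every young tumour, although aged 47 came close to young 36. The means were 242 ± 56.2 CPM in aged hosts and 412 ± 69.99 CPM in young hosts (SD, n = 4 each), and the log2 fold change was -0.76 ± 0.17. The unadjusted p was 0.00146 and the adjusted p 0.773 in edgeR, while the adjusted p was 0.0107 in DESeq2 and 0.325 in limma voom. The groups of the other 2 chains of collagen V overlapped. Col5a1 had 418, 689, 959 and 1262 CPM in the aged tumours, and 819.9, 1007, 1164 and 1081 CPM in the young tumours, so that the aged group held both the lowest and the highest value. Col5a2 had 465, 783, 918 and 1041 CPM in the aged tumours, and 754, 939, 1344 and 1017 CPM in the young tumours. Their log2 fold changes were -0.27 ± 0.30 and -0.32 ± 0.25.

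The other fibrillar chain at an unadjusted p of 0.05 was Col27a1, a fibrillar collagen known from cartilage. Col27a1 had 6.81, 6.39, 10.9 and 5.19 CPM in aged 46, 47, 50 and 51, and 6.17, 13.2, 17.1 and 12.3 CPM in young 36, 37, 40 and 43. Young 36 lay among the aged tumours, so the groups overlapped. The log2 fold change was -0.72 ± 0.31 (edgeR unadjusted p = 0.0475, adjusted p = 0.923), and the unadjusted p stayed under 0.05 in 2 of the 8 fits that leave out 1 tumour. Of the remaining fibrillar chains, Col11a1 (-0.066 ± 0.42), Col24a1 (-0.20 ± 0.36) and Col11a2 (0.35 ± 0.54) had standard errors larger than their fold changes. Col11a2, a chain of the fibres of cartilage, stood at 4.33 CPM in aged 51 and at 0.951 to 1.81 CPM in the other 7. Aged 51 had the highest sums of both skeletal muscle and adipocyte markers, at 179 and 499.9 CPM. The part of those tissues in the Col11a2 value was not tested.

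**Figure D3:**
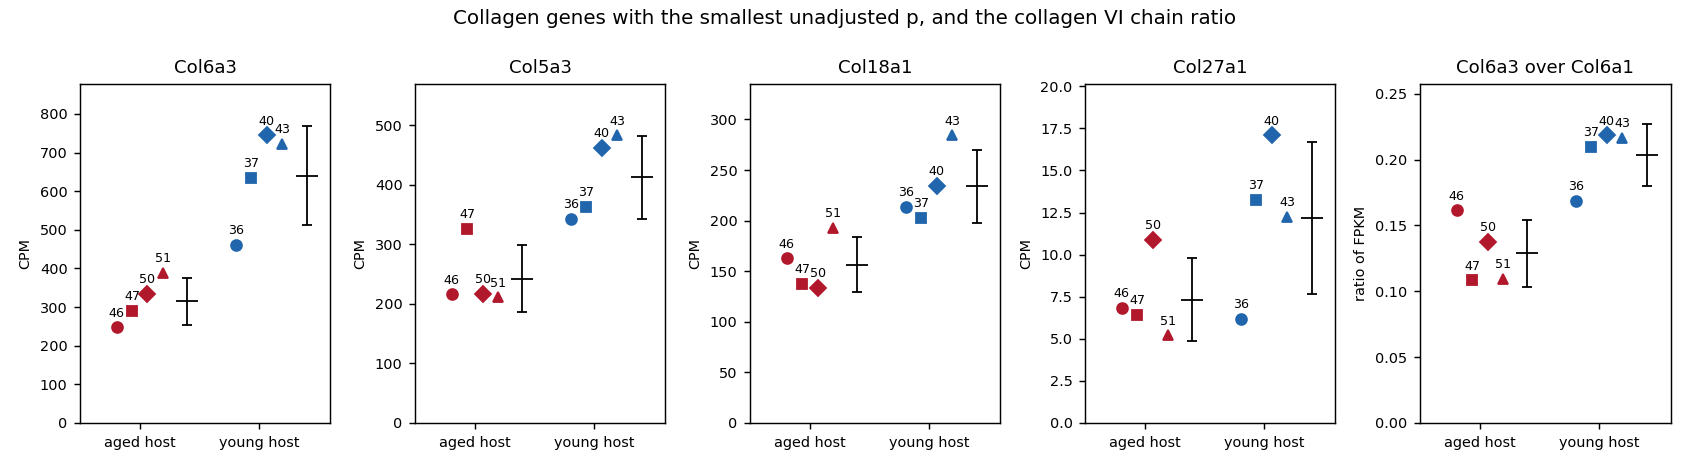
CPM of the 4 collagens at an unadjusted p of 0.05, and the FPKM ratio of Col6a3 to Col6a1 (vertical axes, from 0), in 4 aged and 4 young tumours numbered by mouse, with bars for mean ± SD. For Col6a3, Col5a3, Col18a1 and the ratio, all aged tumours lie below all young tumours, while for Col27a1 young 36 lies among the aged.

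Collagen VI held the collagen with the smallest p. Its chains Col6a1, Col6a2 and Col6a3 assemble with each other into the beaded filament, and Col6a4, Col6a5 and Col6a6 are known as chains that can stand in for Col6a3. Col6a3 had 247, 289, 333 and 389 CPM in aged 46, 47, 50 and 51, and 462, 633, 744 and 722 CPM in young 36, 37, 40 and 43. No aged tumour reached the lowest young tumour, and the means were 315 ± 60.8 CPM in aged hosts and 640.3 ± 128 CPM in young hosts (SD, n = 4 each). The log2 fold change was -1.01 ± 0.19, with an unadjusted p of 0.000428 and an adjusted p of 0.738 in edgeR, an adjusted p of 0.00046 in DESeq2 and one of 0.0661 in limma voom. It ranged from -1.15 to -0.93 when each tumour was left out in turn. The gene spans 90766860 to 90844001 on chromosome 1 (RefSeq, GRCm38), and like Col5a3 (20770050 to 20815117 on chromosome 9), Col18a1 (77052178 to 77166530 on chromosome 10) and Col27a1 (63214009 to 63334991 on chromosome 4) it shares no exon bases with another gene of GENCODE vM21.

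The partner chains overlapped between the groups. Col6a1 had 539, 941, 853 and 1255 CPM in aged 46, 47, 50 and 51, and 964, 1062, 1199 and 1172 CPM in young 36, 37, 40 and 43. Col6a2 had 499.8, 987, 845 and 1075 CPM in the aged tumours, and 1018, 1054, 1238 and 1177 CPM in the young tumours. Aged 46 was the lowest tumour for both, and aged 51 lay above all young tumours for Col6a1. Their log2 fold changes were -0.28 ± 0.23 and -0.39 ± 0.21. The alternative chains Col6a4 and Col6a5 were low, at 0.279 to 0.814 CPM and 0.616 to 6.00 CPM, with fold changes of 0.33 ± 0.43 and 0.66 ± 0.71, and Col6a6 was not tested.

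Because the chains of one collagen are made to assemble with each other, 7 chain ratios were compared within each tumour, which removes any scaling between libraries. The FPKM ratio of Col6a3 to Col6a1 was 0.161, 0.108, 0.137 and 0.109 in aged 46, 47, 50 and 51, and 0.169, 0.210, 0.218 and 0.217 in young 36, 37, 40 and 43. All aged tumours had the lower ratio, though aged 46 and young 36 lay side by side. The log2 ratio differed by -0.67 (aged minus young; two-sided exact permutation p = 0.0286, the smallest that 70 assignments allow, and 0.2 after adjustment over the 7 ratios). Since Col6a3 itself had a lower level, this ratio is not a separate measurement of it.

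The ratio of Col4a1 to Col4a2 was 1.51 to 1.63 in aged and 1.62 to 1.75 in young tumours, a log2 difference of -0.095 (two-sided exact permutation p = 0.0571, adjusted 0.2). Col1a1 to Col1a2 was nearly constant, at 1.49 to 1.81 in aged and 1.66 to 1.93 in young tumours (log2 difference -0.040, exact permutation p = 0.629, adjusted 0.733). Col6a1 to Col6a2 was 1.88 to 2.31 in aged and 1.87 to 1.99 in young tumours (0.099, exact permutation p = 0.2, adjusted 0.467). Neither of these pairs of partner chains differed between the host ages beyond the spread of the tumours. The ratio of Col5a3 to Col5a1 was 0.639, 0.587, 0.279 and 0.207 in aged 46, 47, 50 and 51, and 0.519, 0.446, 0.492 and 0.554 in young 36, 37, 40 and 43. The young tumours were close to each other and the aged tumours lay on both sides of them (log2 difference -0.38, exact permutation p = 0.429, adjusted 0.733). That difference was -0.087 without aged 51 and -0.63 without aged 46. The ratios of Col5a1 to Col5a2 (log2 difference -0.024, exact permutation p = 0.8) and of Col3a1 to Col1a1 (0.086, exact permutation p = 0.629) also overlapped between the groups. The level of a ratio depends on the transcript lengths the authors used: Col1a1 to Col1a2 had a median of 1.75 with the deposited lengths of 4698 and 10007 bases, but 0.741 with GENCODE lengths of 5930 and 5348. Differences between the host ages do not depend on those lengths.

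Of the 6 collagen IV chains, 2 had a lower and 4 a higher fitted level in aged tumours, and none reached an unadjusted p of 0.05 in edgeR. Col4a1 and Col4a2 form the network found in nearly all basement membranes, while Col4a3, Col4a4, Col4a5 and Col4a6 belong to networks known from specialised ones such as those of kidney, lung and some epithelia. The lower levels were those of the common chains and the higher those of the 4 others, a difference between chains that was not tested, and Col4a5 turned to -0.055 without aged 50, young 36 and aged 51. Col4a1 had 308, 362, 332 and 555 CPM in aged 46, 47, 50 and 51, and 366, 461, 567 and 605 CPM in young 36, 37, 40 and 43. Col4a2 had 198, 227, 198 and 334 CPM in the aged tumours, and 218, 266, 314 and 352 CPM in the young tumours. For Col4a1, 3 aged tumours lay below every young tumour, for Col4a2 aged 46 and 50 did, and for both aged 51 stood among the higher young ones. The log2 fold changes were -0.34 ± 0.23 and -0.24 ± 0.22.

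**Figure D4:**
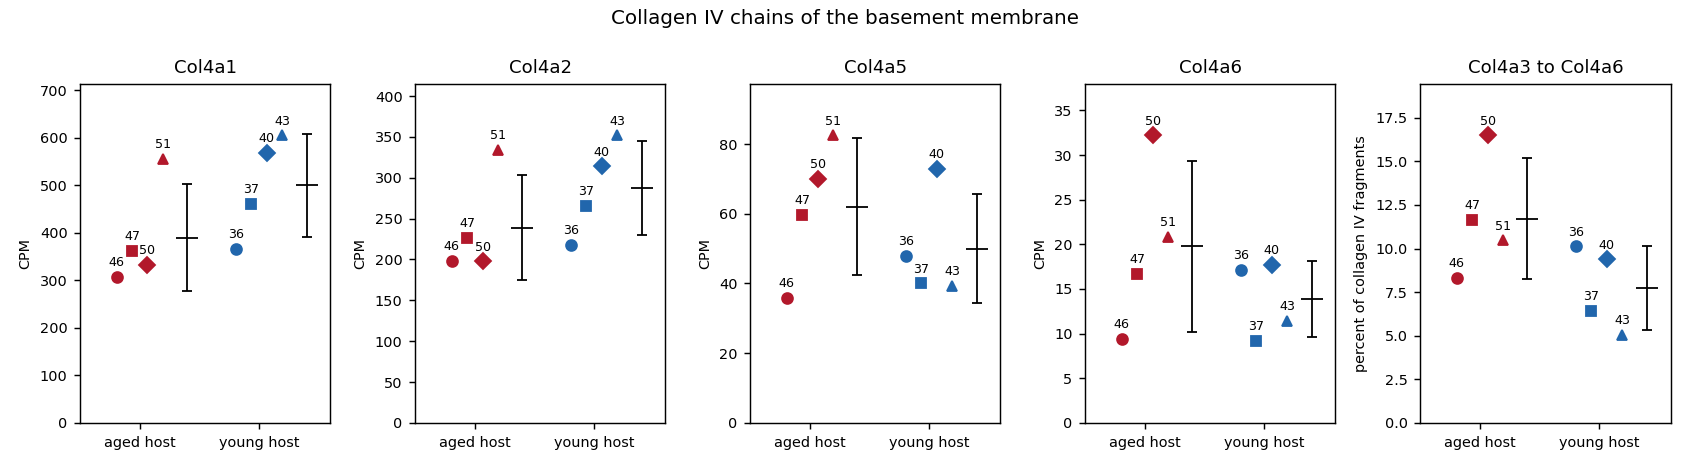
CPM of 4 collagen IV chains, and the percent of collagen IV fragments that came from Col4a3 to Col4a6 (vertical axes, from 0), in 4 aged and 4 young tumours numbered by mouse, with bars for mean ± SD. Aged 51 stands above the other aged tumours for Col4a1 and Col4a2, aged 50 is highest for Col4a6 and for the share, and the groups overlap in every panel.

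Of the specialised chains, Col4a5 had 35.95, 59.7, 69.9 and 82.5 CPM in aged 46, 47, 50 and 51, and 47.9, 40.03, 72.8 and 39.2 CPM in young 36, 37, 40 and 43 (0.33 ± 0.27). Col4a6 had 9.38, 16.7, 32.2 and 20.8 CPM in the aged tumours, and 17.2, 9.17, 17.7 and 11.4 CPM in the young tumours (0.51 ± 0.35). Col4a3 and Col4a4 were near the limit of detection, at 0.155 to 1.37 CPM in aged hosts and 0.056 to 0.416 CPM in young hosts, and their fold changes of 0.99 ± 0.67 and 1.01 ± 0.71 are imprecise. Together these 4 chains gave 8.30%, 11.6%, 16.5% and 10.5% of collagen IV fragments in aged 46, 47, 50 and 51, and 10.1%, 6.42%, 9.38% and 5.04% in young 36, 37, 40 and 43. The groups overlapped only through aged 46. Epithelial markers were highest in aged 50 and lowest in young 43, at 730.3 and 72.9 CPM, the same tumours in which this share was highest and lowest. The tumours between did not keep that order. Young 37 had 466 CPM of these markers and a share of 6.42%, while aged 51 had 146 CPM and 10.5%. Over the list, 8 of 9 epithelial markers had a higher fitted level in aged tumours, and their part in the collagen IV share was not tested. Exons of Col4a3 share 563 bases with a transcript on the opposite strand, so its few fragments may include that gene.

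Collagen IV genes lie in head-to-head pairs. In the RefSeq annotation of GRCm38, Col4a1 and Col4a2 on chromosome 8 point away from each other and overlap by 85 bases, Col4a4 and Col4a3 on chromosome 1 overlap by 114 bases, and Col4a6 and Col4a5 on the X chromosome are 1274 bases apart. The fitted changes had the same sign within each pair: lower in aged tumours for Col4a1 and Col4a2, and higher for both members of the other 2 pairs. The starts of the first pair are shown because both genes begin inside the same stretch, together with those of the 2 collagens with the smallest p. RefSeq windows (GRCm38.p6) run from 250 bases before to 50 bases after the start that the promoter table uses, which for Col4a1, Col5a3 and Col6a3 lies inside the outer end of the RefSeq gene span, and 35 of the 44 collagens had at least 1 window. Capitals mark 3 motifs on either strand, CCAAT (the box bound by NF-Y), GGGCGG (the GC box bound by Sp factors) and TATAAA, and a match on the opposite strand appears as ATTGG for the CCAAT box, as CCGCCC for the GC box and as TTTATA for the last. The windows are chr8:11312777-11313076 on the minus strand for Col4a1, chr8:11312555-11312854 on the plus strand for Col4a2, chr9:20815018-20815317 on the minus strand for Col5a3 and chr1:90843922-90844221 on the minus strand for Col6a3.
Col4a1: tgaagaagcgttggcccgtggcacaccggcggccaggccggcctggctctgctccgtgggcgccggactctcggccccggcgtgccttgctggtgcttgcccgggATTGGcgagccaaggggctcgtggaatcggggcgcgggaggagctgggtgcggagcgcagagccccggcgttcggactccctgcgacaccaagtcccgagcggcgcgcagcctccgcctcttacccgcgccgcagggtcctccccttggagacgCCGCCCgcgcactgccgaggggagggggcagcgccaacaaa
Col4a2: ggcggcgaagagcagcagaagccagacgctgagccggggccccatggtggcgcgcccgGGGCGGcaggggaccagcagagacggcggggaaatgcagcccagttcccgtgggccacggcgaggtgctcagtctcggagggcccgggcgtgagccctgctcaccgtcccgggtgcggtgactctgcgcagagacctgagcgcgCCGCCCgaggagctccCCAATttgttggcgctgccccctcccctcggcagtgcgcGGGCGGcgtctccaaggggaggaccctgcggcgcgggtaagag
Col5a3: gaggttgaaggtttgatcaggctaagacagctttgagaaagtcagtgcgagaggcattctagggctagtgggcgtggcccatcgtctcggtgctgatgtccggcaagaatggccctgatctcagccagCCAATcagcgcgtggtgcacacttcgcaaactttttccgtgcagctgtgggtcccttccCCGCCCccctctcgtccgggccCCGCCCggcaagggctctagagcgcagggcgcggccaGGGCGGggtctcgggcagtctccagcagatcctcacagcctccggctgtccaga
Col6a3: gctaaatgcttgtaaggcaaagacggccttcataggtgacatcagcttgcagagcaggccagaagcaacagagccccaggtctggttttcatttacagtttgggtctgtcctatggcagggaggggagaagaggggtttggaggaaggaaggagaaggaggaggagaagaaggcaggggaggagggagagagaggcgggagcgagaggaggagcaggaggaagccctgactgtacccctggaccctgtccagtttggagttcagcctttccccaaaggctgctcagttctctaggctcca
The Col4a1 and Col4a2 windows overlap, so a motif near their right ends stands in both, read from opposite strands. The Col5a3 window held 1 CCAAT and 3 GGGCGG motifs, and none of the 3 was in the Col6a3 window. Over the 38 collagen windows, CCAAT stood in 34.2% (37.4% of all 32851 windows), GGGCGG in 60.5% (35.7%) and TATAAA in 13.2% (13.6%). The E-box motif CACGTG, searched but not marked, stood in 0 of the 38 and in 7.15% of all windows. No motif contains another, and a match of letters is no evidence of binding.

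The FACIT genes encode collagens that sit on the surface of fibres. Of 9 members, 5 could be tested, and 4 of these had a lower fitted level in aged tumours, with none at an unadjusted p of 0.05. Col16a1 had 114, 197, 227 and 236 CPM in aged 46, 47, 50 and 51, and 217, 266, 282 and 282 CPM in young 36, 37, 40 and 43. The 3 highest tumours were young, and aged 50 and 51 lay above young 36 (-0.43 ± 0.21, edgeR adjusted p = 0.923). Col12a1, which links fibres under tension, had 162, 273, 318 and 352 CPM in the aged tumours, and 214, 312, 418 and 306 CPM in the young tumours, with overlap throughout (-0.16 ± 0.25). Col14a1 ranged over 10.2 to 53.3 CPM in aged hosts and 28.0 to 49.1 CPM in young hosts, with a fold change of -0.27 ± 0.41. Col20a1 (-0.031 ± 0.59) and Col9a3 (0.35 ± 0.45) stayed at or under 1.15 CPM in every tumour.

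Among the remaining classes, Col18a1 stood out. It encodes a basement membrane collagen of the multiplexin type whose C-terminal fragment is endostatin, an inhibitor of vessel growth. Col18a1 had 163, 138, 134 and 192 CPM in aged 46, 47, 50 and 51, and 214, 202, 235 and 284 CPM in young 36, 37, 40 and 43. The groups did not overlap, but aged 51 and young 37 were close. The means were 157 ± 27.1 CPM in aged hosts and 234 ± 36.2 CPM in young hosts (SD, n = 4 each). The log2 fold change was -0.56 ± 0.18, with an unadjusted p of 0.0113 and an adjusted p of 0.923 in edgeR, and an adjusted p of 0.279 in DESeq2 and 0.0763 in limma voom. Like Col6a3 and Col5a3, it kept an unadjusted p under 0.05 in edgeR in all 8 fits that leave out 1 tumour. Col15a1, the other multiplexin, ranged over 21.2 to 98.8 CPM in aged hosts and 44.0 to 88.6 CPM in young hosts (-0.23 ± 0.39).

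Col8a1, a short-chain collagen of vessel walls, had 52.5, 94.1, 110.3 and 97.3 CPM in aged 46, 47, 50 and 51, and 88.7, 99.5, 130.4 and 112 CPM in young 36, 37, 40 and 43 (-0.27 ± 0.20). Only the low value of aged 46 lay far from the rest. Col7a1, the anchoring fibril collagen beneath squamous epithelia, had 13.1 to 43.1 CPM in aged hosts and 12.6 to 25.9 CPM in young hosts (0.30 ± 0.37). The transmembrane collagens Col17a1 and Col23a1 had positive fold changes near 1 with the largest errors of all tested collagens. Col17a1, a hemidesmosome component of basal epithelial cells, had 2.51, 9.25, 7.91 and 0.232 CPM in the aged tumours, and 2.704, 1.44, 4.61 and 0.784 CPM in the young tumours (1.04 ± 0.90). Col23a1 had 0.929, 2.36, 8.36 and 1.12 CPM in the aged tumours, and 2.46, 0.776, 2.88 and 0.336 CPM in the young tumours (0.96 ± 0.84). For both, the spread within the aged group exceeded the difference between the groups. Col13a1 (0.098 ± 0.43), Col8a2 (-0.39 ± 0.72) and Col28a1 (0.026 ± 0.55) were at 0.794 to 9.48 CPM in every tumour.

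**Figure D5:**
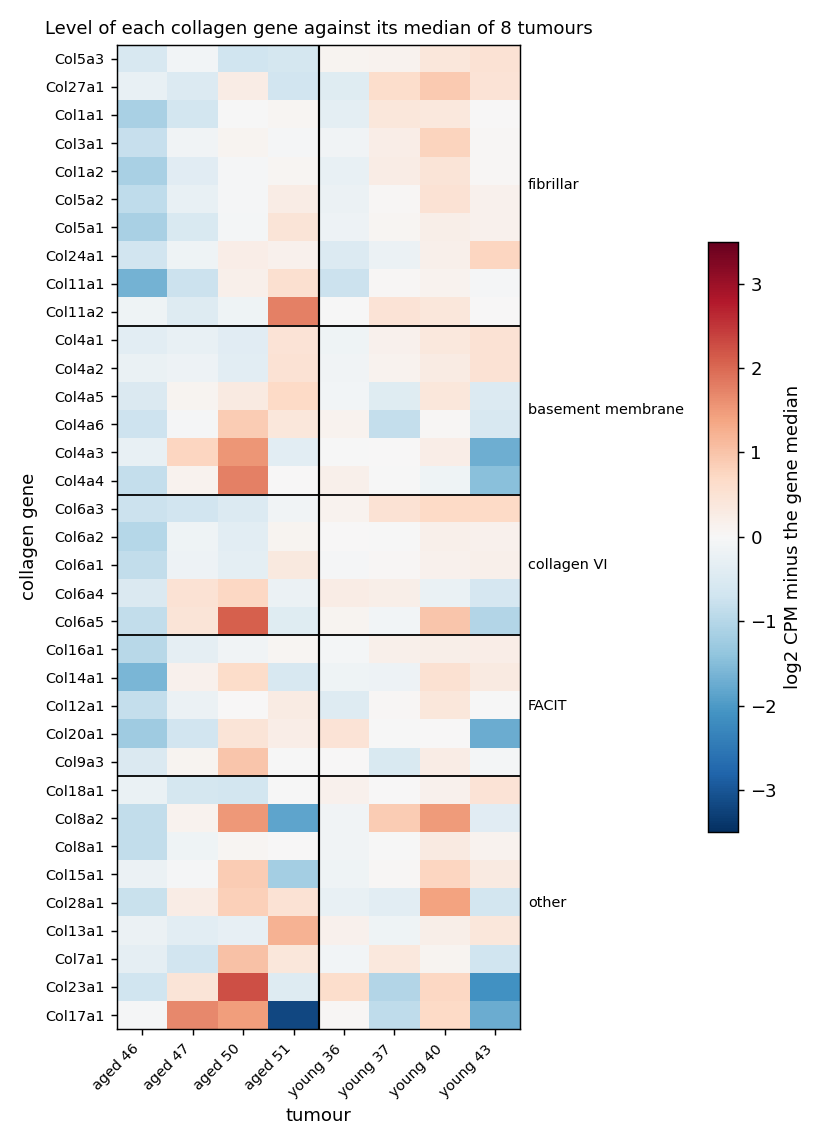
Log2 CPM of the 35 tested collagens (rows, by class) in each tumour (columns, aged left of young), minus the median of that gene over the 8 tumours. Blue cells are below and red cells above the median, and the column of aged 46 is blue in nearly all rows, while Col23a1, Col6a5 and Col4a4 are the reddest cells of aged 50.

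Tumours of the same host group also differed from each other. Of the 35 tested collagens, 16 had their lowest level in aged 46 and 7 in young 43, while 11 had their highest level in aged 50 and 9 in young 40. Those lowest in aged 46 included abundant chains such as Col1a1, Col1a2 and Col3a1, but also scarce ones such as Col24a1 and Col28a1. Those lowest in young 43 included Col23a1, Col4a3 and Col7a1. Aged 46 was also the lowest tumour for the summed markers of fibroblasts, mural cells, endothelium, T cells, Schwann cells and skeletal muscle, but not for the other marker lists. Macrophage markers summed to 1989 CPM in aged 46 and 1972 CPM in aged 51, and adipocyte markers to 45.5 CPM in aged 46 and 36.2 CPM in young 36. Cartilage and bone markers summed to 61.4 CPM in aged 46, near the highest sum of 62.9 CPM in young 43. Epithelial and gland secretory markers were lowest in young 43. Fibroblast markers summed to 626 CPM in aged 46, against 937, 1487 and 1608 CPM in aged 51, 47 and 50, and 1136 to 1848 CPM in young tumours. Mural cell markers summed to 185 CPM in aged 46 and 297 to 1303 CPM in the other 7 tumours, and endothelial markers to 329.6 CPM and 423 to 538 CPM. T cell markers summed to 15.5 CPM in aged 46 and 19.0 to 92.2 CPM in the other 7, and Schwann cell and nerve markers to 13.04 CPM and 13.8 to 56.6 CPM. All 12 fibroblast markers were tested and none was at 0 in all tumours. In aged tumours 9 had a lower and 3 a higher fitted level, where 44.7% of all genes were lower, and their sums overlapped between the groups. Only 1 of the 12 reached an unadjusted p of 0.05 in edgeR, where 2.66% of all genes were called lower. This was Pdgfrb, a receptor of fibroblasts and pericytes. It had 75.9, 129, 159 and 104 CPM in aged 46, 47, 50 and 51, and 183 to 266 CPM in young tumours (-0.88 ± 0.20, edgeR adjusted p = 0.831). The part of these cell types in the collagen levels was not tested.

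Genes that make and handle collagen were described in 6 lists, set beside all genes tested, of which 44.7% had a lower fitted level, 2.66% were lower and 2.34% higher at an unadjusted p of 0.05, and the median log2 fold change was 0.031. Of 15 prolyl and lysyl modification genes, 14 had a lower fitted level in aged tumours (median log2 fold change -0.26) and 4 reached an unadjusted p of 0.05 in edgeR, all lower, with none past the adjusted threshold. The hydroxylases P4ha1 and P4ha2, catalytic subunits of the enzyme that stabilises the triple helix, had the smallest p. P4ha1 had 177, 174, 162 and 151 CPM in aged 46, 47, 50 and 51, and 302, 256, 274 and 273 CPM in young 36, 37, 40 and 43 (-0.73 ± 0.11, adjusted p = 0.738). P4ha2 had 66.1, 77.9, 56.8 and 68.3 CPM in the aged tumours, and 117, 116, 106 and 96.9 CPM in the young tumours (-0.69 ± 0.14, adjusted p = 0.738). In both, every aged tumour was below every young tumour.

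Of 8 folding and secretion genes, 6 were lower in aged tumours (median -0.12) and 2 of these reached an unadjusted p of 0.05. Serpinh1, the collagen chaperone HSP47, had 786, 995, 1131 and 925 CPM in aged 46, 47, 50 and 51, and 1379.5, 1537, 1574 and 1348 CPM in young 36, 37, 40 and 43, with no overlap (-0.60 ± 0.12, edgeR adjusted p = 0.773). Creb3l1, a transcription factor of secretory cells, had 65.2 to 120.5 CPM in aged hosts and 109.7 to 160.4 CPM in young hosts (-0.49 ± 0.18).

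Of the 11 procollagen processing genes, 7 were tested, and 6 had a lower fitted level in aged tumours (median -0.19). The exception was Pcolce2, an enhancer of C-propeptide removal, which had 23.8, 9.02, 6.62 and 15.4 CPM in aged 46, 47, 50 and 51, and 3.88, 3.70, 6.34 and 1.76 CPM in young 36, 37, 40 and 43. Every aged tumour was above every young one, by a narrow margin in aged 50 (1.85 ± 0.50, edgeR adjusted p = 0.923). Tll1, a protease of that step, had 3.87 to 9.15 CPM in aged hosts and 9.57 to 18.0 CPM in young hosts (-0.74 ± 0.30).

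Cross-linking enzymes were divided, with 3 of 5 lower in aged tumours (median -0.17) and 1 at an unadjusted p of 0.05 in edgeR. This was Loxl3, a lysyl oxidase, with 67.1 to 94.5 CPM in aged hosts and 77.6 to 124 CPM in young hosts (-0.43 ± 0.16), while its relative Loxl4 had 67.9 to 95.1 CPM in aged hosts and 46.7 to 89.2 CPM in young hosts (0.32 ± 0.22). Of 11 tested collagen receptors, 6 were lower (median -0.013) and none reached an unadjusted p of 0.05 in edgeR, and the smallest p were those of Antxr1 and Ddr2. Antxr1, a receptor that binds collagen VI, had 60.3 to 179 CPM in aged hosts and 143 to 251 CPM in young hosts (-0.60 ± 0.31). Ddr2, a tyrosine kinase receptor for fibrillar collagen, had 102 to 179 CPM in aged hosts and 127 to 229.5 CPM in young hosts (-0.37 ± 0.25), and both genes overlapped between the groups. Of 11 genes for collagenases and collagen uptake, 7 were lower (median -0.21), and at an unadjusted p of 0.05 edgeR gave 4 lower and 1 higher. Mmp9, the gelatinase B that cleaves denatured collagen and collagen IV, had 12.6, 18.9, 9.82 and 12.7 CPM in aged 46, 47, 50 and 51, and 17.1, 47.5, 66.7 and 69.2 CPM in young 36, 37, 40 and 43 (-1.87 ± 0.39, adjusted p = 0.773). Ctsk, the collagen-degrading cathepsin K, had 16.8 to 31.7 CPM in aged hosts and 25.4 to 76.9 CPM in young hosts (-1.29 ± 0.34). For both, young 36 lay within the aged range and the other 3 young tumours above it. Both are known from osteoclasts and macrophages, and macrophage markers summed to 1972 to 3631 CPM in aged hosts and 2366 to 3803 CPM in young hosts. Their part in the Mmp9 and Ctsk values was not tested.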

How the data were processed

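The deposited tables give, per the file headers, a fragment count per Entrez gene for each tumour, with FPM values of the authors, used here as CPM, and FPKM values of the authors, in which that CPM is scaled by a deposited transcript length. Tools named in the submitters' processing notes are bcl2fastq, TopHat2 2.0.12 and Picard 2.7.1, with GRCm38 (mm10) as the build. How fragments were assigned to genes, and whether strand was used, is not given in the sources used here. 27 symbols that had become dates were restored by Entrez number, and 5 stayed missing.

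Counts were fitted for all genes with edgeR 4.0.16 in R 4.3.3 (filterByExpr with a minimum count of 10 and total of 15, TMM scaling, robust quasi-likelihood, host age as the only term). P-values were adjusted over all 14575 genes tested at a threshold of 0.05, and a standard error is the fold change over the square root of F. DESeq2 1.42.0, limma 3.58.1 (voom with sample weights), other scalings and filters, and leaving out tumours were alternatives. Chain ratios used deposited FPKM and a two-sided exact permutation test with 70 assignments. Glycine repeats were read from GENCODE vM21 codons, in place of the protein table planned. The fitting procedure was tested on simulated data. Chi-square over its degrees of freedom was at least 44.8 for any pair of libraries, so none is a copy of another. Each tumour comes from a mouse of its own.

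Values in every tumour are given for collagens at an unadjusted p of 0.05, those whose groups do not overlap, the 2 highest by FPKM in each class and the partners in the ratios, and from each pathway list for the 2 smallest p, some of them as ranges. Genes beyond these, among them Col17a1, Col23a1 and Pdgfrb, were named after their values were seen. The members and lists were chosen with earlier results of these data known.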

Additional observations from a re-analysis of the deposited data

Results flagged for a closer look

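In 4 of 80 groups of 4 tumours, 1 tumour lay far from the other 3 in log2 CPM. Chance flags about 1 in 20 groups. Col4a1 stood at 9.18 log2 CPM in aged 51, against 8.32 to 8.45 in the other aged tumours. Col11a2 stood at 2.20 in aged 51, against -0.029 to 0.29, and Col13a1 at 1.72, against 0.15 to 0.31. Col4a3 stood at -3.06 in young 43, against -1.36 to -1.11 in the other young tumours.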

How the results depend on the processing

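The adjusted count of 0 collagens in edgeR became 2 in DESeq2 (Col6a3 and Col5a3). The count of 4 at an unadjusted p of 0.05 became 9 in limma voom. It was 7 without aged 50 and young 36 (the tumours with most gland transcripts). Leaving out aged 51 as well gave 16, in a fit of aged 46 and 47 against young 37, 40 and 43. The tumours left out there were the aged ones with the highest collagen shares and the young one with the lowest, which by itself moves the groups apart. With 1 tumour left out the count was 3 to 9, the 9 without aged 51. Of all genes, 4.99% reached that p in the fit of 8 tumours, 12.1% in limma voom, 5.33% and 3.57% in those exclusions, and 3.59% to 7.78% with 1 tumour left out (4.04% without aged 51). The median of -0.23 ranged from -0.35 to -0.040 with 1 tumour left out and was -0.36 and -0.63 in those exclusions. The count of 22 lower collagens ranged from 18 to 27 with 1 tumour left out and was 26 and 30 in those exclusions. Of 35 genes, 20 kept their sign in every alternative and 15 did not. In limma voom these were Col7a1 (-0.42), Col14a1 (0.042), Col11a2 (-0.57), Col24a1 (0.020) and Col13a1 (-0.41). Without aged 50 and young 36 they were Col6a5 (-0.35), Col7a1 (-0.12), Col9a3 (-0.053) and Col28a1 (-0.35). With aged 51 out too they were Col4a5 (-0.055), Col6a5 (-0.24), Col7a1 (-0.47), Col9a3 (-0.12), Col11a2 (-0.64), Col13a1 (-0.46) and Col28a1 (-0.62). With 1 tumour left out, the fold change ranged from -0.12 to 1.35 for Col23a1, -0.33 to 1.10 for Col6a5, -0.094 to 0.51 for Col7a1, -0.084 to 0.55 for Col9a3, -0.65 to 0.0056 for Col14a1, -0.50 to 0.58 for Col11a2, -0.33 to 0.010 for Col12a1, -0.68 to 0.019 for Col15a1, -0.36 to 0.083 for Col24a1, -1.32 to 0.037 for Col8a2, -0.46 to 0.26 for Col13a1, -0.44 to 0.21 for Col11a1, -0.35 to 0.26 for Col20a1 and -0.20 to 0.76 for Col28a1. The log2 ratio difference then ranged from -0.63 to -0.087 for Col5a3 to Col5a1, -0.068 to 0.024 for Col1a1 to Col1a2, -0.12 to 0.038 for Col5a1 to Col5a2 and -0.015 to 0.20 for Col3a1 to Col1a1. Other scalings and filters reversed no collagen. The causes were not tested. No paired analysis was possible because the groups share no mouse numbers. With 4 tumours a group, differences smaller than the spread among tumours were not detectable, and larger ones could also go uncalled. For Col6a3 the groups did not overlap, yet its adjusted p in edgeR was 0.738. Below 0.111 CPM (3 fragments) a level is set by counting error.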
